A study of Mus musculus with 4 samples.

Results

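Isolated wide regions are stretches of chromatin marked by H3K27ac (histone H3 acetylated at lysine 27) that are at least 2000 bp across and have no other listed acetylated region within 12.5 kb on the same chromosome. Applied to the region list that the 4 libraries share, this rule took 574 of 23946 regions, or 2.4% of the list and 4.57% of its length. The rule uses coordinates only. How the authors called and bounded the regions is not given in the sources used here, so a region's width may itself depend on the acetylation of these same cells, and levels set against width are given as a description. The members are compared with the 10170 isolated regions under 2000 bp, called isolated narrow regions below, and in places with 577 wide regions that do have a neighbour within 12.5 kb.

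The cells were MC1-ZE7 mouse embryonic stem (ES) cells of strain MC1 (129S6/SvEvTac), 1 reporter line grown without feeders on gelatin in serum and leukemia inhibitory factor. In this line the green fluorescent protein Emerald reports activity of the Zscan4c promoter, and cells were sorted on its fluorescence into Emerald-negative cells (Zscan4−) and the bright Emerald-positive fraction (Zscan4+). Each state had 2 ChIP-seq libraries made with an H3K27ac antibody, from 9939520 to 18284360 reads deep as worked out from the values. No treatment other than sorting separates the groups, and nothing in the labels ties replicates to separate cultures, so each p-value covers the spread between these libraries, which may be technical. Replicate 2 of both states used fragments of 200 to 500 bp selected after amplification, and replicate 1 used fragments of 200 to 300 bp. The main comparison did not pair libraries by replicate number, so its spread includes any difference between these preparations. The files give positions on the mouse build mm9 and no gene names, and no mm9 annotation was used here. Regions are therefore named by their deposited number and position, no gene or promoter is assigned, and the sorted states were not checked against marker genes.

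H3K27ac is placed by the acetyltransferases p300 and CBP and marks active promoters and enhancers. A broad or strongly acetylated stretch of chromatin usually covers an active promoter with its flanking nucleosomes or several enhancer elements close together, while a narrow one often covers a single element. Zscan4 genes are known for brief bursts of activity in a minority of ES cells and for their expression in early embryos, with effects on telomeres and on the activity of other early embryonic genes.

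The members were wide only relative to this list. Their median width was 2077 bp, the quartiles were 2030 and 2171 bp, and 456 of 574 were under 2200 bp. Only 38 reached 2500 bp, 10 reached 3000 bp, and the widest was 3851 bp. The isolated narrow regions had a median of 1142 bp. Isolation was often much larger than the rule asks: the median distance from a member to the nearest listed region was 31574 bp, and 95 members stood at least 100 kb from any other. The most isolated, R12539 on chromosome 2 (97804338 to 97806482), lay 1849484 bp from its nearest neighbour. Members were found on 20 chromosomes, at shares from 1.64% of listed regions on chromosome 8 (26 of 1586) to 3.65% on the X chromosome (22 of 603).

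At the edges of the rule, members and excluded regions held similar ranges of values. The 3 members listed first at exactly 2000 bp, R00967, R01843 and R05996, held 3.1 to 9.21 RPKM across the 4 libraries. RPKM is a read count divided by region length in kilobases and by library size. The 3 isolated regions listed first among those 1 bp short of the limit, R00076, R11605 and R15560, held 4.19 to 8.48 RPKM. On the side of distance, R05429, R23860 and R08597, with gaps of 12523 to 12551 bp, held 4.06 to 10.8 RPKM, and the excluded R02086, R05387 and R20752, with gaps of 12486 to 12499 bp, held 2.71 to 13.75 RPKM.

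The typical isolated wide region was more acetylated per kilobase than the typical isolated narrow one in every library. The median member stood at 5.46 and 5.71 RPKM in Zscan4− replicates 1 and 2, and at 4.54 and 6.42 RPKM in Zscan4+ replicates 1 and 2. The narrow medians were 4.28, 4.53, 3.45 and 4.96 RPKM in the same order. On the log2(RPKM + 0.5) scale, the median of the members exceeded that of the narrow regions by 0.318 and 0.305 in the Zscan4− libraries and by 0.35 and 0.342 in the Zscan4+ libraries. The excess was 0.312 ± 0.009 in Zscan4− and 0.346 ± 0.006 in Zscan4+ cells (SD, n = 2), a difference of 0.034 that was larger than the spread between replicates. An exact two-sided permutation test gave p = 0.333, the smallest that 2 libraries against 2 allow, and the difference was -0.022 in both cases when the width limit was moved to 1500 or to 2500 bp. Averaged over the 4 libraries the excess was 0.329, and it was 0.012 with a limit of 2500 bp, which leaves 38 regions, and 0.367 with a limit of 1500 bp. Isolated regions of 1500 up to 2000 bp already had a median of 5.15 RPKM, so the excess did not begin at 2000 bp. It was seen in all 4 libraries, while its change between states was small and turned with the width limit.

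**Figure D1:**
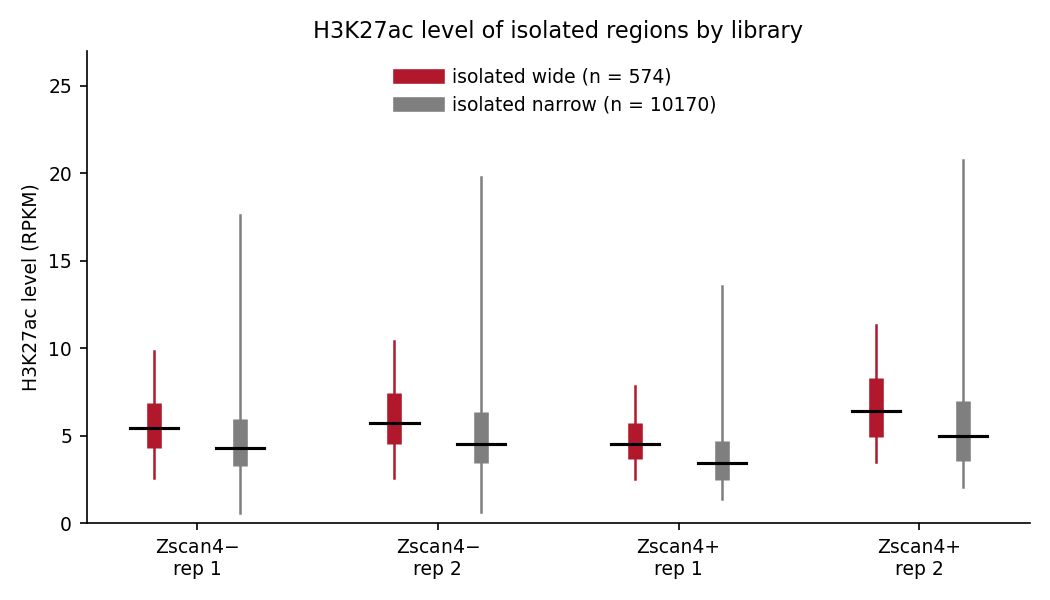
H3K27ac level in RPKM (vertical axis) of the 574 isolated wide and 10170 isolated narrow regions in each of the 4 libraries. Black lines are medians, thick bars the range between quartiles and thin lines the 5th to 95th percentile. The wide regions have the higher median in each library, 5.46 against 4.28 RPKM in Zscan4− replicate 1, and the lower 95th percentile.

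The strongest acetylation was not in the members. Averaged over the 4 libraries, they ran from 1.85 to 13.94 RPKM, with a 5th percentile of 3.2 and a 95th of 9.22 RPKM. The isolated narrow regions ran from 1.19 to 80.31 RPKM with a 95th percentile of 17.94. Among isolated regions the 95th percentile was 38.0 RPKM under 500 bp, 10.14 RPKM from 1500 up to 2000 bp and 7.61 RPKM from 2500 bp up. Within the members, width and log2 mean level correlated at Pearson r = -0.234 (Spearman rho -0.271, n = 574 regions that share the same 4 libraries and whose RPKM is divided by width). The distance to the nearest region showed little relation to level (r = -0.083). Wide regions with a close neighbour looked like the isolated ones, with a median of 5.5 against 5.6 RPKM and a 95th percentile of 9.4 RPKM.

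Because they are long, the members were measured with many reads. The median member held 116 and 219 reads in Zscan4− replicates 1 and 2, and 175.5 and 219 reads in Zscan4+ replicates 1 and 2, against 48, 93, 70 and 89 reads for the median isolated narrow region. Counting error alone gave the difference between states a median standard error of 0.11 on the log2 scale in members and 0.18 in narrow regions. The limit set by a count of 0, taken as 3 reads, corresponds at the median member width to between 0.079 RPKM (Zscan4+ replicate 1) and 0.145 RPKM (Zscan4− replicate 1). No member was at 0 in any library, and the lowest counts were 4, 5, 52 and 47 reads in Zscan4− replicates 1 and 2 and Zscan4+ replicates 1 and 2. Together the members held 4.195% and 4.164% of the reads that fell in listed regions in the Zscan4− libraries, and 4.535% and 4.364% in the Zscan4+ libraries.

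Most isolated wide regions had a similar mean level of H3K27ac in the 2 states. Of the 574, 475 (82.75%) differed by less than 1.5-fold, against 62.65% of isolated narrow regions, 69.52% of isolated regions of 1500 up to 2000 bp and 65.43% of the whole list. Wide regions with a close neighbour were like the members, at 79.2%. The standard deviation of the log2 difference over regions was 0.59 in members, 0.54 in wide regions with a close neighbour and 0.89 in isolated narrow regions. Replicates of 1 state also differed less in members, with a standard deviation over regions of 0.22 between the Zscan4− and 0.26 between the Zscan4+ libraries, against 0.35 and 0.36 in narrow regions, and 0.22 and 0.25 in wide regions with a close neighbour. These low spreads were therefore shared by wide regions with and without a neighbour. The narrower spread between states was therefore seen together with a narrower spread between replicates and with more reads per region, and the part these play was not tested.

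The median log2 difference of the members, Zscan4+ minus Zscan4−, was -0.04, beside -0.15 in isolated narrow regions, -0.09 in wide regions with a close neighbour and -0.17 in all listed regions. Within replicate 1 the members' median was -0.25, and within replicate 2 it was 0.15, so its direction was opposite in the 2 replicates. In both it stood above that of the narrow regions, which was -0.35 and 0.07. Listed regions held 16.74% and 17.88% of all reads in Zscan4− replicates 1 and 2, and 12.97% and 19.14% in Zscan4+ replicates 1 and 2. The part that library preparation or this share played in the direction was not tested. With each library centred on its own median the members' value was 0.06 and that of all regions -0.07. With quantile normalization they were 0.08 and -0.04. Scaling thus set the sign of the members' median, and in each of these cases it lay above that of the whole list.

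**Figure D2:**
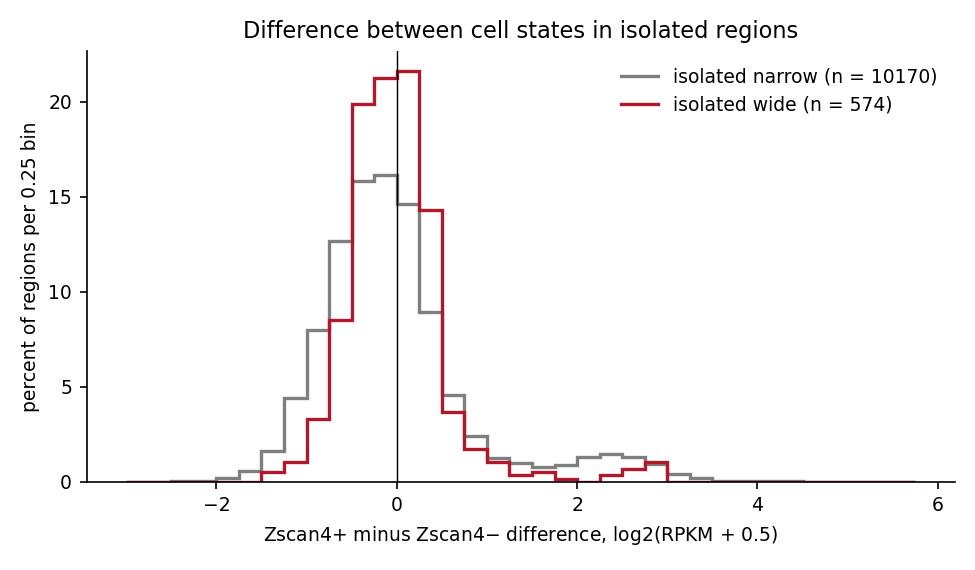
Distribution of the difference between states (horizontal axis, Zscan4+ minus Zscan4−, log2(RPKM + 0.5)) as percent of regions per bin of 0.25 (vertical axis), for 574 isolated wide and 10170 isolated narrow regions. The wide regions are more closely gathered around 0, with a standard deviation of 0.59 against 0.89, and both classes have a small group on the right, which in the wide regions is the 12 members past a difference of 2.

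Groups were compared with limma on log2(RPKM + 0.5) over all 23946 regions, calling a region at a Benjamini-Hochberg adjusted p of at most 0.05. Zscan4+ cells had more H3K27ac at 24 (4.18%) of the 574 isolated wide regions and less at 13 (2.26%). The background over all listed regions was 8.01% higher and 6.82% lower, and over isolated narrow regions it was 10.1% higher (1031) and 7.97% lower (811). In this fit the members' shares were below the background in both directions, as were those of wide regions with a close neighbour (3.64% higher and 3.64% lower). No test of this difference between classes was made, since regions are not replicates. Centring each library on its median gave 60 higher (10.45%) and 43 lower (7.49%) members, against 15.99% and 15.18% of narrow and 14.09% and 15.13% of all listed regions. With centring and the replicate number as a block together, a setting chosen after seeing the data, 21.6% of members and 22.36% of narrow regions were called higher, and 14.63% and 23.55% lower. Over all listed regions the same fit called 20.67% higher and 24.49% lower. Under it the members' share of higher calls was thus slightly above that of the whole list, while their share of lower calls was still below it.

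The counts also rested on single libraries. Leaving out Zscan4− replicate 1 or Zscan4− replicate 2 gave 13 higher and 0 lower members in either case, with a median standard error of 0.65 and 0.64 in place of 0.36. The shares of all listed regions were then 4.6% higher and 0.53% lower, and 4.63% and 0.25%. Zscan4+ replicate 1 had the lowest share of its reads in listed regions, 12.97%. Without that library, the median log2 difference was 0.19 in members and 0.09 over the whole list, in place of -0.04 and -0.17. Without Zscan4+ replicate 2 the 2 medians were -0.27 and -0.42. In these 2 fits the calls among members moved as those over the whole list did, with 1 exception. Without Zscan4+ replicate 2, higher calls became more frequent among members and slightly less frequent over the list. With the replicate block alone, limma called 31 members higher and 21 lower, and among them were all 24 and all 13 of the fit without it. Its shares over the whole list were 9.35% higher and 10.87% lower. Both Zscan4+ libraries stood above both Zscan4− libraries in 110 members (19.2%, against 18.6% of all listed and 20.4% of isolated narrow regions) and below both in 162 (28.2%, against 35.1% in both).

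**Figure D3:**
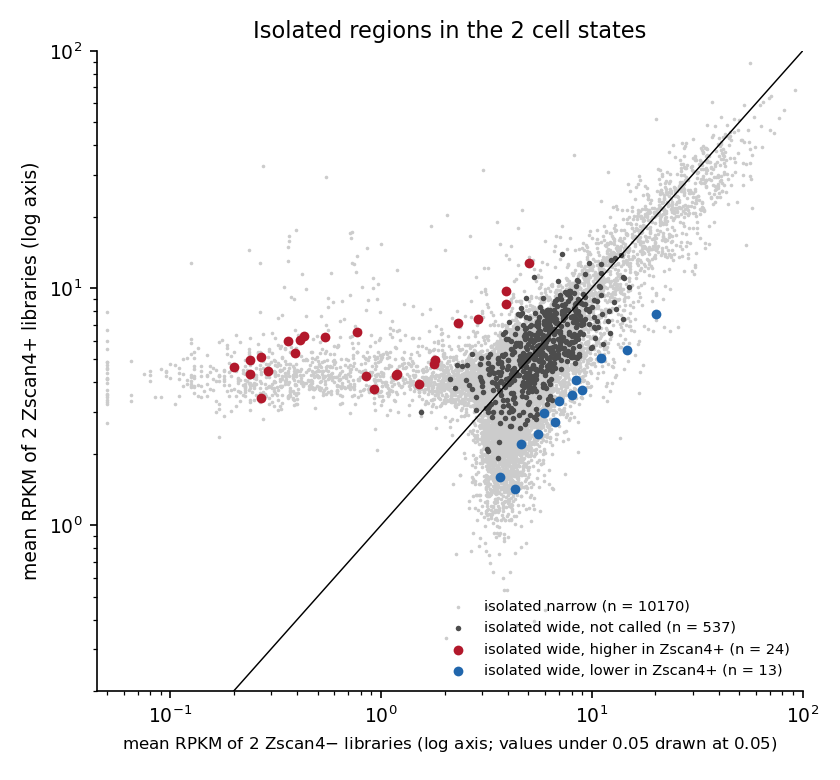
Mean RPKM of the 2 Zscan4+ libraries (vertical, log axis) against the mean of the 2 Zscan4− libraries (horizontal, log axis) for isolated narrow regions (light grey) and isolated wide regions not called (dark grey), higher (red) or lower (blue) in Zscan4+ cells. The black line marks equal levels and values under 0.05 RPKM are drawn at 0.05. The 24 members called higher reach left to 0.2 RPKM in Zscan4− cells, while the 13 called lower stay above 1.4 RPKM in Zscan4+ cells.

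The rises were of 2 kinds by size. Of the 24 higher members, 12 rose 4-fold or more with the pseudocount of 0.5 RPKM included, with log2 differences of 2.34 to 2.92. The other 12 had differences of 1.04 to 1.81, and no called member lay between 1.81 and 2.34. The 12 large rises are 2.09% of members, against a background of 3.86% of all listed and 5.87% of isolated narrow regions. They began near the floor. Their Zscan4− medians were 0.4 and 0.32 RPKM in replicates 1 and 2, with at most 0.8 RPKM in either library. Their Zscan4+ medians were 4.59 and 5.89 RPKM, close to those of all members (4.54 and 6.42). The Zscan4+ level is no independent result, since the 12 were chosen for their rise and a region near the floor in Zscan4− cells is listed through its level in Zscan4+ cells.

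R12434 on chromosome 2 (83610446 to 83612561, 2115 bp) had the largest rise. It held 0.43 and 0.29 RPKM in Zscan4− replicates 1 and 2, and 5.46 and 6.53 RPKM in Zscan4+ replicates 1 and 2. The means were 0.36 ± 0.1 and 6.0 ± 0.76 RPKM (SD, n = 2), and the log2 difference was 2.92 (standard error 0.37, limma adjusted p = 4e-13). In pooled reads it went from 20 to 431, or 17.45 times higher per library read. The exact 95% interval of that ratio, 11.16 to 28.86, covers counting error only. The 2 states did not overlap, and the lower Zscan4+ library was far above the higher Zscan4− library. Non-overlap held in all 24 higher and all 13 lower members, and in 235 of the 537 not called. Over all listed regions, both Zscan4+ libraries stood above both Zscan4− libraries in 18.6% and below both in 35.1%. Non-overlap is no independent support for a called region, since the call selects for it.

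The other large rises had the same shape. R01340 on chromosome 1 (186441472 to 186443590) held 0.29 and 0.19 RPKM in Zscan4− and 4.21 and 5.72 RPKM in Zscan4+ libraries, a log2 difference of 2.87. It stood 120303 bp from the nearest listed region. R16809 on chromosome 5 (76665442 to 76667507) held 0.19 and 0.35 against 4.53 and 5.75 RPKM, a log2 difference of 2.87. R20462 on chromosome 7 (149330620 to 149333039), with 0.21 and 0.19 against 3.96 and 5.27 RPKM, had the largest ratio in pooled reads among these 10, 23.55 (95% counting interval 13.6 to 44.64), from 13 to 378 reads. In all 3 the Zscan4− libraries held between 4 and 13 reads each, so the size of the rise depends on the pseudocount.

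R00114 on chromosome 1 (13668402 to 13670590) went from 0.41 and 0.46 to 5.22 and 7.35 RPKM, and R13695 on chromosome 3 (32392323 to 32394353) from 0.45 and 0.36 to 4.93 and 7.09 RPKM. R21278 on chromosome 8 (75585849 to 75587849) went from 0.4 and 0.37 to 4.65 and 6.03 RPKM. These 3 reached the level of a typical member in Zscan4+ cells. R12321 on chromosome 2 (70977955 to 70979967) had the most Zscan4− signal of the 10, at 0.7 and 0.39 RPKM, and reached 5.44 and 7.02 RPKM. R12590, also on chromosome 2 (105604912 to 105607048), went from 0.38 and 0.21 to 3.92 and 4.97 RPKM. R10664 on chromosome 18 (46514919 to 46518467) is unusual in width, at 3548 bp the second widest of all members. It held 0.2 and 0.27 RPKM in Zscan4− and 3.27 and 5.4 RPKM in Zscan4+ libraries, a log2 difference of 2.68 (standard error 0.38, limma adjusted p = 1.7e-10), or 24 against 517 pooled reads. This 3548 bp stretch thus went from 7 and 17 reads in the Zscan4− libraries to 212 and 305 in the Zscan4+ libraries.

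The 2 remaining rises past 4-fold, R17892 on chromosome 6 and R04949 on chromosome 12, had log2 differences of 2.34 and 2.47. The 12 smaller rises began from a visible level, with Zscan4− means of 0.85 to 5.02 RPKM and Zscan4+ means of 3.76 to 12.73 RPKM. The strongest of them in level, R03911 on chromosome 11 (97084262 to 97086497, named after its values were seen), went from 5.0 and 5.04 to 12.6 and 12.87 RPKM, with replicates nearly equal in both states. Its log2 difference was 1.26 (limma adjusted p = 0.0075). Over all 24 higher members, adjusted p ran from 4e-13 to 0.032, and the median difference was 1.7 in replicate 1 and 2.24 in replicate 2, a selection of called regions that favours agreement.

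**Figure D4:**
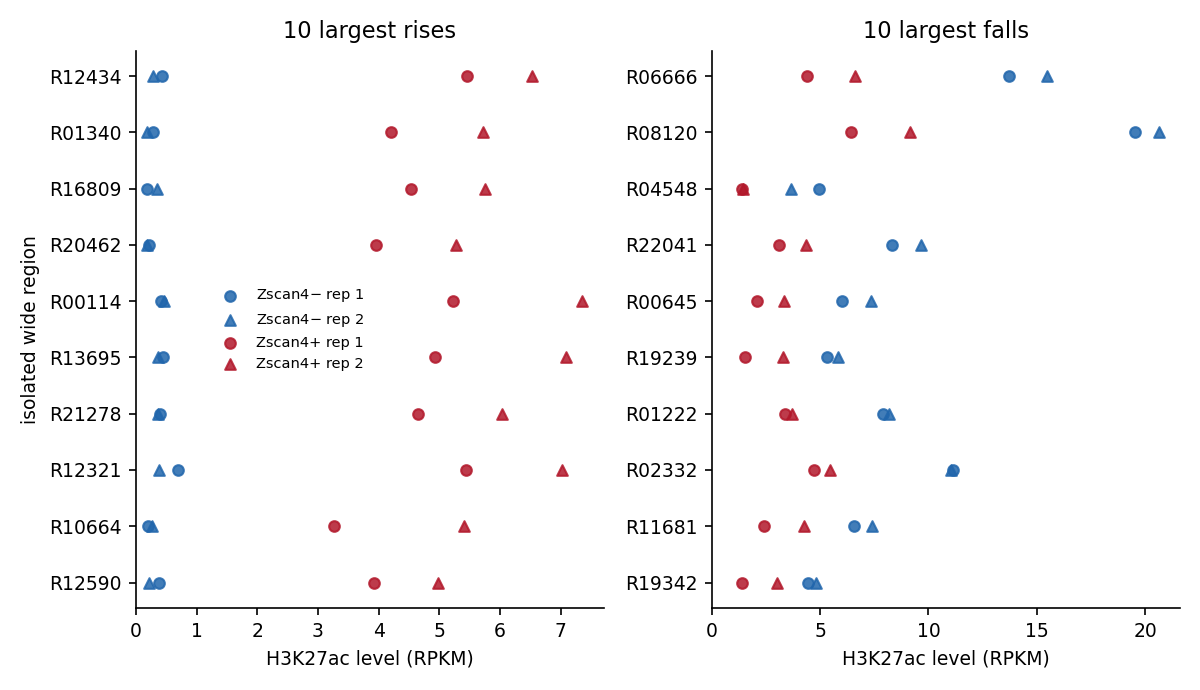
H3K27ac level in RPKM (horizontal axis, a separate scale in each panel) of the 10 isolated wide regions with the largest rise (left) and the 10 with the largest fall (right), 1 row per region. Circles are replicate 1 and triangles replicate 2, blue for Zscan4− and red for Zscan4+. The rises start at or below 0.7 RPKM, whereas the falls end between 1.39 and 9.16 RPKM.

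The 13 lower members had log2 differences of -1.35 to -0.96. None reached 4-fold, which was rare in the list as a whole, with 16 of 23946 listed and 12 of 10170 isolated narrow regions. For the 13, in pooled reads Zscan4− exceeded Zscan4+ cells 2.1 to 2.92 times relative to library totals. Their Zscan4− medians were 6.54 and 7.4 RPKM in replicates 1 and 2, above those of all members, and their Zscan4+ medians were 2.41 and 3.96 RPKM. Neither level is an independent result, since the 13 were chosen for their fall. None of the 574 members was below 1 RPKM in both Zscan4+ libraries, beside 25 of the 23946 listed regions, and the lowest single Zscan4+ value was 1.39 RPKM. In Zscan4− cells 14 members (2.44%) lay under 1 RPKM in replicate 1 and in replicate 2, and all 14 were called higher. The same held for 3.83% of all listed and 5.94% of isolated narrow regions, so the members were not more often low in Zscan4− cells than the list. In every member the higher of the 2 group means was at least 3.01 RPKM, so a member low in 1 state was necessarily higher in the other.

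R06666 on chromosome 14 (31376857 to 31378940) had the largest fall. It held 13.72 and 15.49 RPKM in Zscan4− and 4.41 and 6.6 RPKM in Zscan4+ libraries, a mean of 14.61 ± 1.25 against 5.5 ± 1.55 RPKM (SD, n = 2). The log2 difference was -1.35 (standard error 0.37, limma adjusted p = 0.0038). With 857 against 387 pooled reads, Zscan4− was 2.73 times higher relative to library totals (95% counting interval 2.42 to 3.09). The states did not overlap, as in all 13 lower members, and the Zscan4+ level was that of an ordinary member.

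R08120 on chromosome 15 (92835560 to 92837563) was the most acetylated member of all. It held 19.54 and 20.63 RPKM in Zscan4− libraries and 6.44 and 9.16 RPKM in Zscan4+ libraries, a log2 difference of -1.33 (standard error 0.39, limma adjusted p = 0.0064), and it stood 181549 bp from its nearest listed region. The top of the range in Zscan4− cells was thus taken by a region that was much lower in Zscan4+ cells. R04548 on chromosome 12 (16015594 to 16017642) ended lowest, going from 4.96 and 3.66 to 1.39 and 1.44 RPKM. Its 99 pooled Zscan4+ reads were still well above the floor.

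R22041 on chromosome 8 (127323166 to 127325175) went from 8.31 and 9.67 to 3.08 and 4.35 RPKM, and R00645 on chromosome 1 (90564762 to 90566863) from 5.99 and 7.37 to 2.11 and 3.35 RPKM. R01222 on chromosome 1 (176101534 to 176103539), the most isolated of the 13 at 312026 bp, went from 7.88 and 8.17 to 3.38 and 3.7 RPKM. Like all of the 13, these 3 did not overlap between states, and R01222 had the closest replicates of the 3. R02332 on chromosome 10 (94168437 to 94170476) had 11.15 and 11.02 against 4.72 and 5.45 RPKM. R19239 and R19342 on chromosome 7 (28042122 to 28044758 and 30134456 to 30136495) and R11681 on chromosome 19 (58138316 to 58140316) differed more between the Zscan4+ replicates. R19342, for example, held 4.44 and 4.8 RPKM in Zscan4− and 1.39 and 2.99 RPKM in Zscan4+ libraries. Without Zscan4+ replicate 1, the log2 differences of these 3 were -0.67, -0.55 and -0.64 in that order, and their limma adjusted p was 0.091, 0.17 and 0.085. Without either Zscan4− library, the named falls kept log2 differences of -1.51 to -0.92 but lost their call. The median standard error of those 2 fits was 0.65 and 0.64 in place of 0.36, so differences of that size could hardly pass. The 10 named rises, which were larger, kept their call under all 14 other settings of the fit.

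Of the 5 widest and the 5 most acetylated members, 3 passed the test. R01997 on chromosome 10 (69033858 to 69037709), the widest at 3851 bp, held 4.42, 4.9, 3.34 and 3.69 RPKM in Zscan4− replicates 1 and 2 and Zscan4+ replicates 1 and 2, a log2 difference of -0.36 that did not pass the test (limma adjusted p = 0.57). R06639 on chromosome 14 (3540 bp) and R18470 on chromosome 6 (3511 bp) had differences of -0.06 and -0.27, also not past it. The fifth widest, R10498 on chromosome 18 (34610539 to 34614004, 3465 bp), rose from 1.25 and 1.14 to 3.84 and 4.84 RPKM, a log2 difference of 1.51 (limma adjusted p = 0.00045). That call was lost without Zscan4− replicate 1 (adjusted p = 0.098) or Zscan4− replicate 2 (0.2). After R08120, the highest mean levels were at R22113 on chromosome 9, R10703 on chromosome 18, R15628 on chromosome 4 and R18879 on chromosome 6, the last tied with R14213 on chromosome 3. R10703 (53903721 to 53905801) was the steadiest, at 12.53, 13.07, 12.65 and 14.16 RPKM. The other 3 spanned 12.13 to 15.08 RPKM in the Zscan4− libraries and 8.44 to 18.0 RPKM in the other state, with Zscan4+ replicate 2 above Zscan4+ replicate 1 in each. Their log2 differences were -0.06, 0.06 and -0.36, and none passed the test, although R18879 did without Zscan4+ replicate 2 (-0.7, limma adjusted p = 0.022).

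Among members, the share called higher was larger in the wider bins, while the share called lower followed no single direction. Of the 344 members of 2000 up to 2100 bp, 9 (2.62%) were higher and 10 (2.91%) lower. Of the 192 of 2100 up to 2500 bp, 12 (6.25%) were higher and 2 (1.04%) lower. Of the 38 of 2500 bp or more, 3 (7.89%) were higher and 1 (2.63%) lower. Over all listed regions the shares were 8.01% higher and 6.82% lower. Across isolated regions of all widths, the share of lower calls went from 11.55% under 500 bp to 5.97% at 1500 up to 2000 bp, and that of higher calls from 13.28% to 6.82%. The bins from 2100 bp up rest on 15 higher and 3 lower calls, and no test of the width trend was made.

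**Figure D5:**
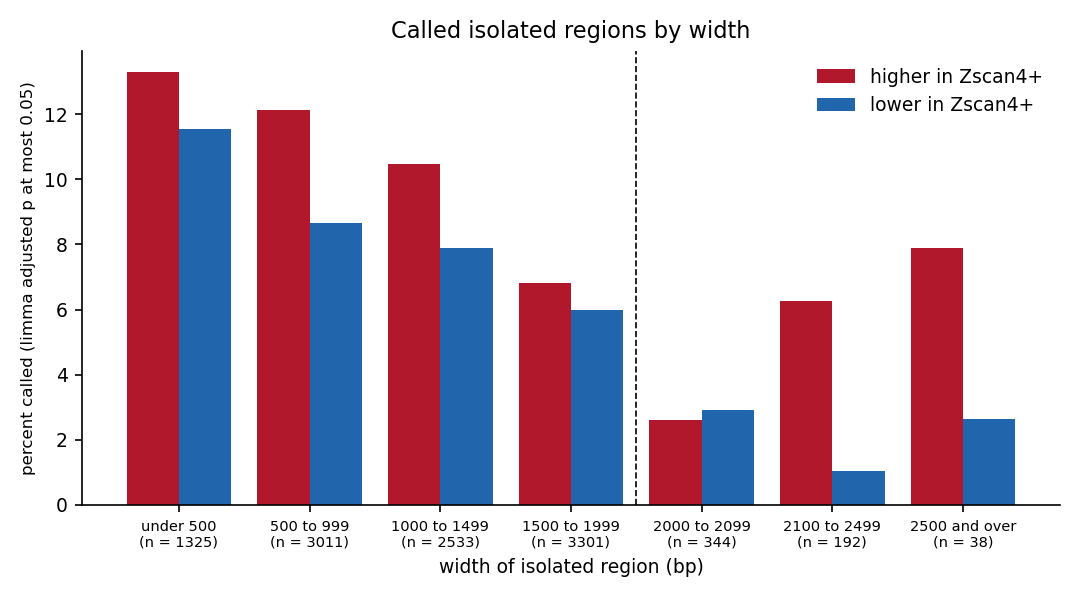
Percent of isolated regions called higher (red) or lower (blue) in Zscan4+ cells (vertical axis, limma adjusted p of at most 0.05) by region width in bp (horizontal axis), with the number of regions in each bin. Regions right of the dashed line are the isolated wide regions. Shares fall with width up to 2000 bp, from 13.28% to 6.82% for higher calls.

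Calls also differed by mean level, which is taken from the same 4 libraries as the calls. At the quartiles of mean RPKM over the whole list (3.47, 4.62 and 7.81 RPKM), 48 members (8.36%) fell below the lowest one, against 32.68% of isolated narrow regions, and those 48 held 18 of the 24 rises. A region near the floor in 1 state has a low mean for that reason alone. In the 3 classes above it, from low to high, 0.83%, 1.26% and 1.14% of members were called higher, against 3.21%, 2.52% and 2.32% of isolated narrow regions in the same classes. Lower calls there were 1.67%, 1.57% and 3.41% of members and 5.11%, 3.84% and 4.71% of narrow regions. The standard deviation of the difference was 0.48, 0.39 and 0.44 in members, and 0.58, 0.6 and 0.63 in narrow regions. In these 3 classes the members' shares and spread were the smaller ones, in regions that also hold more reads. Below the lowest quartile the order was the opposite for rises: 37.5% of members and 25.33% of narrow regions were called higher, with median differences of 0.38 and -0.28 and standard deviations of 1.3 and 1.28. Lower calls there were 6.25% of members and 15.01% of narrow regions. Regions near the floor in 1 state fall in this class by its cut, so its shares are no independent result.

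The nearest listed region leaned the same way as a called member, and was called with it in 4 of 24 rises and 2 of 13 falls. It had a positive log2 difference beside 66.67% of the members that rose, 15.38% of those that fell and 43.76% of those not called, against 38.28% of all listed regions. The median difference of the nearest region was 0.09, -0.54 and -0.08 in the same order, and no test of these shares was made. For the 24 members that rose, the nearest region was called higher in 4, at R06332, R10230, R12590 and R20462, and lower in 0. For the 13 that fell, it was called lower in 2, at R00645 and R22041, and higher in 0. Over all 574 members the nearest region was higher in 57 and lower in 31. The background over all listed regions was 8.01% higher and 6.82% lower. The shares beside called members, 4 of 24 and 2 of 13, were above it but rest on few calls. None of these counts of called neighbours was tested against the background. The neighbour of R12590, R12591 at 20108 bp, rose by 2.37 on the log2 scale (limma adjusted p = 6.8e-09), from a mean of 0.49 to 4.63 RPKM, about as its member did. The neighbour of R12434, R12433, held 5.2 and 5.8 RPKM in the 2 states and that of R00114, R00113, held 10.05 and 12.04 RPKM, so both rises stood beside a region acetylated in both states. Across members, the log2 difference of a region and that of its nearest neighbour correlated at r = 0.124 (n = 574), and across isolated narrow regions at r = 0.175 (n = 10170). These are regions that share libraries, and some share a neighbour.

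By distance to the nearest region, the members' median log2 difference was -0.04, -0.02, -0.05 and -0.03 in members with gaps under 25 kb, 25 to 50 kb, 50 to 100 kb and over 100 kb. Calls numbered 11 higher and 5 lower of 229, 9 and 3 of 147, 2 and 1 of 103, and 2 and 4 of 95 in the same order. Higher calls were thus 4.8% and 6.12% in the nearer bins and 1.94% and 2.11% in the farther ones, which hold 4 calls together. Over all listed regions the shares were 8.01% higher and 6.82% lower, above those of every bin. No test of a trend with distance was made.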

How the data were processed

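H3K27ac ChIP-seq was measured in 4 libraries, 2 per state, grouped by the description in the labels. Per the file headers, the values deposited are RPKM, which the authors rounded to 2 decimals over 1 shared region list. Bowtie, HOMER and mm9 are named in the submitters' processing notes. For the versions and the calling of regions, the sources used here give nothing. No input library was used. Multiplied by width, values fell on whole multiples of 1 read: 97.11% to 99.97% of values under 50 reads lay within 0.1 of a whole number.

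limma 3.58.1 (R 4.3.3) was fitted with a variance trend on log2(RPKM + 0.5) over all regions, since a minimum mean of 0.5 RPKM removed none, without a replicate block. Two-sided p-values received the Benjamini-Hochberg adjustment. The log2 scale understates changes of low regions. The fit was tested on simulated data. Exact permutation tests used scipy 1.17.1 in Python 3.11.15. Replicate numbers pair the libraries, because in the labels each number has its own library preparation, and the replicate differences of the states correlated at 0.352 over regions. The members, the comparison classes and the rule for named regions were chosen with earlier results of these data known. Named regions are the 10 largest called rises and falls with 1 sign in both replicates, the 5 widest and the 5 highest members, and 3 on each side of each limit. Alternatives covered the block, pseudocount, minimum, scaling, voom on recovered reads, threshold, single libraries, width and gap. Marker genes fixed beforehand were not used, since regions carry no gene names.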

Additional observations from a re-analysis of the deposited data

How the results depend on the processing

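Higher members (24) numbered 60 with median centring, 58 with quantile normalization and 13 to 51 when 1 library was left out. Lower members (13) numbered 21 with the replicate block, 43 with median centring, 35 with quantile normalization, 20 with voom on recovered reads, 20 at a threshold of 0.10 and 0 to 96 with 1 library left out. All 24 and all 13 were kept with the block, centring, quantile normalization, voom and the wider threshold. Over all listed regions, quantile normalization called 13.81% higher and 13.69% lower, against 10.1% and 6.1% of members. Voom called 7.83% and 7.78% against 4.7% and 3.48%, and the threshold of 0.10 called 9.1% and 10.45% against 4.88% and 3.48%. In the main fit the shares were 8.01% and 6.82% against 4.18% and 2.26%. The whole list thus moved as well, except in higher calls with voom, which fell slightly over the list and rose among members. Isolated narrow regions (1031 higher, 811 lower) numbered 1626 and 1544 with centring, 1568 and 1425 with quantile normalization, 1248 lower with the block, and 687 to 1507 higher and 36 to 3040 lower with 1 library left out. The block with centring, added after seeing the data, gave 124 higher and 84 lower members and 2274 higher and 2395 lower narrow regions. For centring and quantile normalization the median standard error was 0.21 and 0.2 in place of 0.36. The cause of the changed counts was not tested for any setting.

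With a width limit of 1500 bp, 249 of 3875 regions were higher (6.43%) and 210 lower (5.42%), against 11.73% and 8.94% of narrow regions. With 2500 bp, 3 of 38 were higher (7.89%) and 1 lower (2.63%), against 10.14% and 7.97%. With a gap of 5000 bp, 34 of 852 were higher (3.99%) and 22 lower (2.58%), against 9.11% and 7.61%. With 25000 bp, 13 of 345 were higher (3.77%) and 8 lower (2.32%), against 11.21% and 8.26%. All listed regions stood at 8.01% and 6.82% throughout, so the share of higher calls at 2500 bp was close to that of the list. The change of the wide-minus-narrow level between states (0.034) was -0.022 with either width limit. The level excess (0.329 on the log2 scale over the 4 libraries) was 0.356 and 0.3 with pseudocounts of 0.1 and 1, 0.367 and 0.012 with width limits of 1500 and 2500 bp, 0.285 and 0.353 with gaps of 5000 and 25000 bp, and 0.322 to 0.337 with 1 library left out. Of 294 values of the 21 called named regions under 14 other settings, 0 reversed and 25 lost their call, all in fits without 1 library. Among the 7 uncalled ones, R06639 turned to 0.04 with centring, 0.05 with quantile normalization and ran from -0.3 to 0.18 with 1 library left out. R22113 turned to 0.04 and 0.09 and ran from -0.5 to 0.38 in the same order. With 1 library left out, R10703 ran from -0.02 to 0.14 and R15628 from -0.24 to 0.37. Such fits take the spread of the remaining single library from the other state. The size of the large rises, whose Zscan4− libraries held few reads, moved with the pseudocount. R12434, for example, had a log2 difference of 2.92 with 0.5 RPKM, 3.74 with 0.1 and 2.36 with 1.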
